A study of Arabidopsis thaliana with 3 samples.

Results

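The genes described here encode proteins of the cytosolic ribosome of Arabidopsis thaliana. They are 39 genes given by locus identifier, 25 for proteins of the large subunit and 14 for proteins of the small subunit, from 24 protein families. Their sites are the rows that the deposited table assigns to these genes, which were 504 of 120269 listed m6A sites. They are referred to below as member genes and member sites.

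N6-methyladenosine (m6A) was measured by CAM-seq in polyadenylated RNA. CAM-seq is a chemical method that deaminates unmethylated adenosine so that it is read as guanosine, while m6A is still read as adenosine. The samples were whole seedlings of the Col-0 accession, in 3 replicates of 1 group, without a treatment or a control group. Seedlings grew for 7 d on 1/2 Murashige and Skoog plates at 22 °C under 16 h of light per day, and the replicates share all of these conditions. The table gives 1 depth and 1 count of unconverted reads per site, and no column names a replicate, so each count is taken to cover all 3 together. The m6A level is the share of unconverted reads, and each level below is treated as a pooled value with a Wilson 95% interval, which covers counting error only.

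Ribosomal proteins surround the catalytic RNA of the ribosome. They are needed in large and matched amounts, and their mRNAs are among the most abundant in growing tissue. Plants keep several expressed copies of most ribosomal protein genes, so that 1 protein is often made from a set of paralogs. In plants, m6A is deposited mostly in the 3′ UTR, near the stop codon, by a methyltransferase complex that prefers the sequence RAC, where R is A or G and the A in the middle is methylated.

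The table holds only adenosines that passed a binomial p-value threshold of 0.001 against a background of 1% at a depth of at least 20 reads. The smallest level that could be listed thus fell with depth, from 20% for 20 reads through 6.0% for 100 and 2.2% for 1000 to 1.55% for 4000 reads. Depth at adenosines that are not in the table was not analysed here, and such adenosines are called unlisted rather than unmethylated. Member sites had a median depth of 1991.5 reads, with a range of 21 to 13169, against a median of 107 reads over all listed sites. Members were thus listed at levels far below those that most other genes could show.

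The sequences around the strongest sites carry the main pattern of these genes and are shown first. The list holds the highest site of the 12 members with the highest levels at a depth of at least 100 reads. The last line is the highest site of AT1G70600, the member with the lowest maximum. Each line gives 21 bases of the transcript from 5′ to 3′ with TAIR10 coordinates, in the T alphabet of the table. The 5 bases centred on the methylated adenosine are in capitals.
RPL28 gene AT2G19730, chr2:8513068-8513088, plus strand: ttgaagttGAACCataatgct
RPS18A, chr1:8069251-8069271, plus strand: tcatcaaaAGACGgtcttagc
L10 family gene AT2G40010, chr2:16708455-16708475, minus strand: cttcatcaAAACTacctttct
L10 family gene AT3G11250, chr3:3522921-3522941, plus strand: tggtttcaAGACAattcagat
RPL5B, chr5:15905243-15905263, plus strand: tcagactaAAACActcagttt
L10 family gene AT3G09200, chr3:2823285-2823305, minus strand: agtatgttGGACCtcaatttt
RPL10B, chr1:9322936-9322956, plus strand: tttatgaaAGACTtgttttgt
RPL38 gene AT2G43460, chr2:18046163-18046183, minus strand: ttatgttgAGACTtttcgagt
RPS24 gene AT3G04920, chr3:1362224-1362244, plus strand: gtttagagAAACAtatgatcc
PGY2, chr1:12024555-12024575, plus strand: cgttttatGGACCaaatccac
RPL10A, chr1:4889508-4889528, plus strand: ttttagttGGACAcaatcagt
RPS5A, chr3:3778039-3778059, minus strand: tttcgtctGAACTactttgaa
L18e/L15 gene AT1G70600, chr1:26620995-26621015, minus strand: ccgaattcAGACTtataattg
All of these adenosines lie in the 3′ UTR, and in each of them the capitals hold AAC or GAC. The base before and the base after this core differ from gene to gene.

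At least 1 site was listed on 38 of the 39 members, while 54.6% of all nuclear protein-coding genes had a listed site. The exception was RPL36aB, which is described separately below. Members with sites had 6 to 20 of them, with a median of 13, against a median of 7 in other genes with sites and of 11 in other genes whose sites had a median depth of at least 1000 reads. The highest level exceeded 50% in 37 of the 38 members with sites. The same was found in 67% of all genes with sites, and in 402 of 679 other genes (59.2%) with a median site depth of at least 1000 reads. Among the 32 members at that depth, 31 had a site above 50%. A gene with more listed sites has more chances to hold a high one, and the part of the number of sites in this count was not tested.

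**Figure D1:**
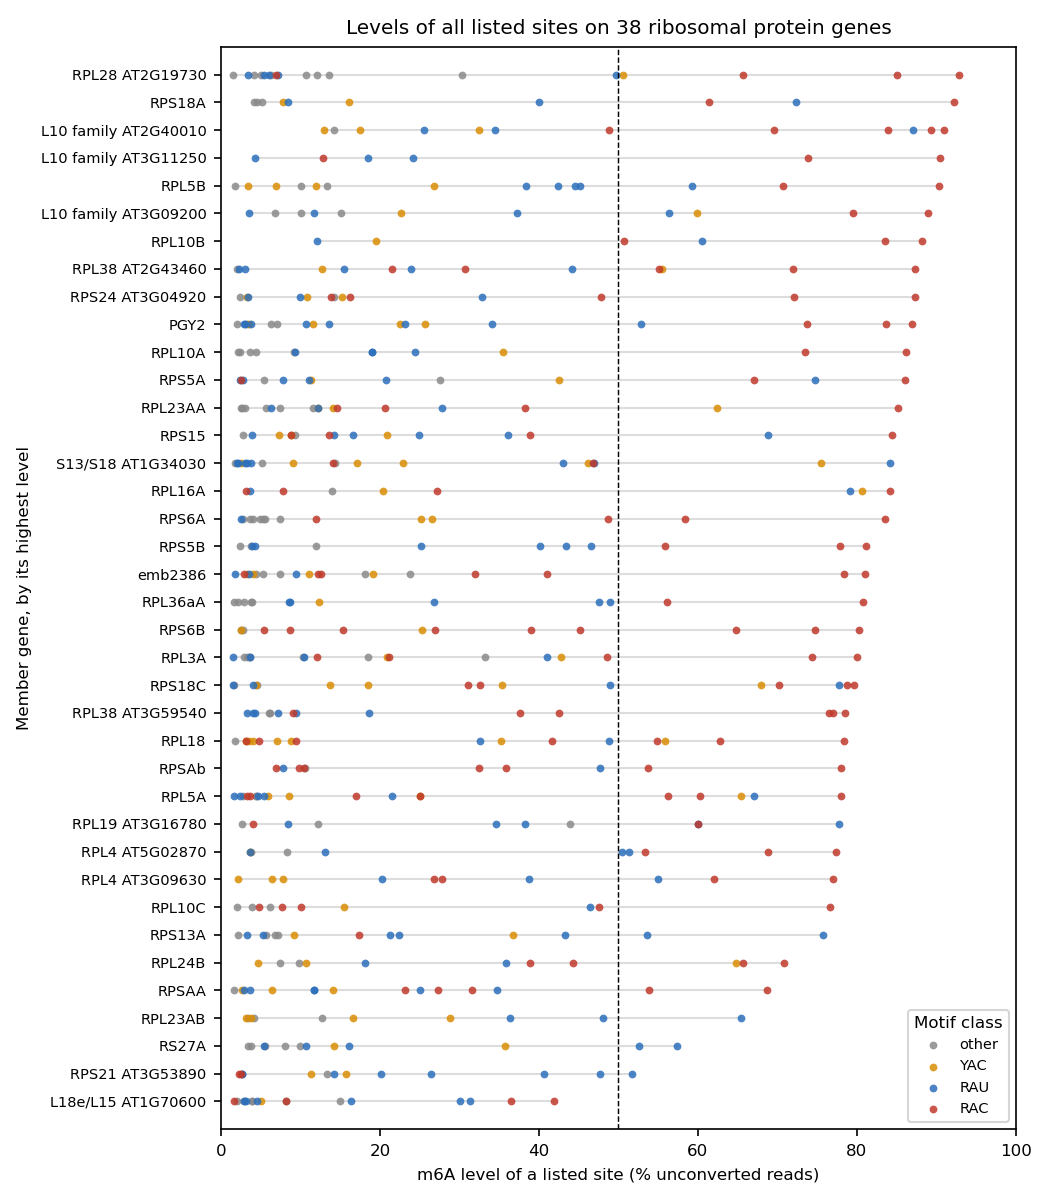
Each point is 1 of the 504 listed sites on 38 member genes, with the m6A level (percent of unconverted reads) on the x axis and the genes on the y axis in order of their highest level; colours give the motif class and the dashed line marks 50%. Nearly every gene has a few high sites, mostly RAC, and a cluster of sites below 10%, and only AT1G70600 has no point right of the line.

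The highest level per member ranged from 41.8% to 92.8% and had a median of 80.9%. The median highest level was 70.4% in other genes, and 64.4% in other genes with a median site depth of at least 1000 reads. In the members, the highest level was above 75% in 32 and above 90% in 5. The second highest site of a member had a median level of 71.3% and exceeded 50% in 34 members. Most members thus carried more than 1 site that was methylated in the majority of reads. Exactly 2 such sites were found in 14 members, 3 in 10, 4 in 6 and 5 in 4. In the 34 members with more than 1, the sites above 50% of 1 transcript lay within 12 to 158 nt of each other from first to last, with a median span of 68 nt. The counts above 75%, the second highest levels and the numbers of sites above 50% per gene are not given for other genes.

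In the large subunit, 24 genes had 315 sites and the highest levels had a median of 80.9%. The gene AT2G19730, for the eukaryote-specific protein RPL28, had the highest level of all members, at 92.8% (91.7 to 93.7%) over 2518 reads. This site lay 83 nt past the stop codon in the motif GAACC. The same transcript had a GAACA site at 85%, 49 nt past the stop codon, among 18 listed sites in all.

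The genes annotated as the ribosomal protein L10 family form a set of their own, distinct from RPL10A to RPL10C. AT2G40010 reached 90.9% (84.1 to 94.99%) over 110 reads, AT3G11250 90.4% (87.4 to 92.8%) over 470 reads and AT3G09200 88.9% (88.1 to 89.7%) over 5687 reads. All 3 intervals overlapped. AT2G40010 was the shallow copy, with a median depth of 85.5 reads, and none of its 12 listed sites was below 12.9%. Much lower levels could not be listed at that depth.

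RPL5 binds the 5S ribosomal RNA, and its 2 genes differed in their highest site. RPL5B reached 90.3% (89.2 to 91.2%) over 3553 reads. RPL5A reached 78.0% (76.7 to 79.2%) over 4392 reads, and its 20 listed sites were the most of any member.

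RPL10A, RPL10B and RPL10C encode the large-subunit protein of the L16p/L10e family. RPL10B reached 88.2% (81.7 to 92.6%) over 136 reads, RPL10A 86.2% (85.4 to 87.0%) over 7068 reads and RPL10C, also named senescence associated gene 24, 76.6% (74.2 to 78.8%) over 1345 reads. The interval of RPL10C did not reach those of the other members of the set, while the intervals of RPL10A and RPL10B overlapped. The RPL10B mRNA was listed at depths of 108 to 284 reads only, and with 6 sites it shared the lowest number with AT3G11250.

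PGY2, a ribosomal protein L9 gene whose mutants were found through altered leaf shape, had its highest site at 86.9% (86.0 to 87.7%) over 6306 reads and a second at 83.6%. Among the RPL38 genes, AT2G43460 reached 87.3% (86.4 to 88.2%) over 5549 reads and AT3G59540 78.5% (77.3 to 79.7%) over 4360 reads. Both of these sites had the motif AGACU, at 112 and 101 nt past the stop codon.

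RPL23AA, for a protein near the exit of the peptide tunnel, reached 85.1% (83.7 to 86.5%), and its paralog RPL23AB 65.4% (63.3 to 67.4%). The site of RPL23AB was of the RAU class, with the motif GGAUU. In the L19e family, emb2386 reached 81.1% (79.9 to 82.1%) and AT3G16780 77.7% (75.1 to 80.1%). The highest sites of the RPL4 genes AT5G02870 and AT3G09630 were 77.4% (75.7 to 79.0%) and 77.0% (74.6 to 79.4%), and their intervals overlapped.

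The other large-subunit members lay within the same span. RPL16A reached 84.1%, RPL36aA 80.7%, RPL3A 80.1%, RPL18 78.4% and RPL24B 70.8%. RPL3 lies close to the peptidyl transferase centre, and RPL24B, also called STV1, is known for its role in reinitiation after upstream open reading frames.

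The gene AT1G70600, annotated as a protein of the L18e/L15 superfamily, was the lowest of the members. Its highest site was an AGACU at 163 nt with a level of 41.8% (39.9 to 43.8%) over 2361 reads, and the second was a GAACC at 36.5% (35.4 to 37.7%). The 3 deepest member sites of the whole set were also on this mRNA, a GGAGU at 47 nt with 3.93% over 13169 reads, a GAAUC at 3.11% over 11291 reads and a GGAUU at 30.02% over 9744 reads. The next deepest sites were a GAAUG of PGY2 at 13.6% over 9667 reads and an AGAUU of emb2386 at 9.45% over 9468 reads. The mRNA of AT1G70600 was listed at 17 sites, so that it had as many sites as other members but at lower levels.

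AT1G70600 was also the only member whose annotated transcript is a single exon, while the other 37 have 2 or more. The comparison of exon number was made after its levels had been seen. Among other genes with a median site depth of at least 1000 reads, the highest level exceeded 50% in 15 of 85 single-exon genes (17.6%) and in 384 of 588 genes with more exons (65.3%). The median highest level was 14.9% in the first of these groups and 70.2% in the second. AT1G70600 thus lay above the median of the single-exon genes and below that of the genes with introns.

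In the small subunit, 14 genes had 189 sites and the highest levels had a median of 80.7%, close to that of the large subunit. RPS18A, whose mutant is known as pointed first leaf, reached 92.2% (90.9 to 93.4%) over 1745 reads at an AGACG site. AT1G34030, of the same S13/S18 family, reached 84.2% (82.0 to 86.1%) at a GGAUC site and RPS18C 79.6% (78.3 to 80.9%) at a GGACC site. The 3 intervals did not overlap. AT1G34030 had 19 listed sites, as did PGY2 and emb2386, and RPL3A followed with 18, the same number as AT2G19730.

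AT3G04920, for RPS24, reached 87.3% (85.9 to 88.7%) over 2177 reads. The site lay 169 nt past the stop codon, farther than the median of 109 nt for the highest sites. RPS5A reached 86.0% (84.7 to 87.2%) over 3009 reads and RPS5B 81.2% (79.1 to 83.1%). RPS6 is the ribosomal target of S6 kinase, and its genes RPS6A and RPS6B reached 83.5% (82.5 to 84.6%) and 80.2% (78.9 to 81.5%). In both of these sets the A copy was higher and the intervals did not overlap.

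RPSAA and RPSAb encode the small-subunit protein SA. RPSAA reached 68.7% (67.5 to 69.8%) over 6210 reads. RPSAb reached 78.0% (64.8 to 87.2%) over 50 reads, the only highest site of a member with a depth under 100, and the intervals overlapped. At a depth of at least 100 reads the highest level of RPSAb was 47.7%, which is not above 50%. The remaining genes were RPS15 at 84.5%, RPS13A at 75.8%, RS27A at 57.4% and AT3G53890, for RPS21, at 51.7% (49.8 to 53.6%). The interval of the RPS21 gene included 50%.

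The highest sites also shared features of position. All 38 lay in the 3′ UTR, in the last exon, and between 37 and 176 nt past the stop codon. The motif was RAC in 32 of them and RAU in the other 6, and YAC (Y, C or U) in 0. The RAU cases were 4 of the 14 small-subunit genes, AT1G34030, RPS13A, RS27A and the RPS21 gene, and the large-subunit genes RPL23AB and AT3G16780. RAC was the motif of the highest site in 22 of 24 large-subunit and in 10 of 14 small-subunit members. The same counts are not given for the highest sites of other genes. Of 28949 sites above 50% in other genes, 27364 lay in the 3′ UTR and 19614 were in RAC motifs. The place in the 3′ UTR and the RAC motif were thus not particular to the members.

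Beside these few strong sites, most member sites were weak. Their median level was 14.3%, against 21.8% over all listed sites, and 200 member sites (39.7%) were below 10%. Levels above 50% were found at 105 sites (20.8%, 17.5 to 24.6%), compared with 24.2% of all listed sites. The order of these medians turned among deep sites. At a depth of at least 1000 reads, the 331 member sites had a median of 17.4% and 23.6% (19.3 to 28.4%) were above 50%, while 7850 sites of other genes had a median of 8.86% and 14.2% (13.4 to 14.97%) above 50%. Depth still differed in this comparison, with medians of 3362 reads in members and 1915 in other genes. Restricted further to levels of at least 20%, which any depth could list, the medians were 48.9% and 45.2%, and the shares above 50% were 49.1% (41.4 to 56.8%) and 43.1% (41.2 to 45.03%), with overlapping intervals.

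Across the 38 members, the highest level showed little relation to depth, with Spearman's rho of -0.05 and Pearson's r of -0.18 against the log10 median depth. The median level of a member was lower where depth was higher, with rho of -0.41. These values are descriptions, since all points come from the same pooled libraries and the smallest level that can be listed falls with depth.

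**Figure D2:**
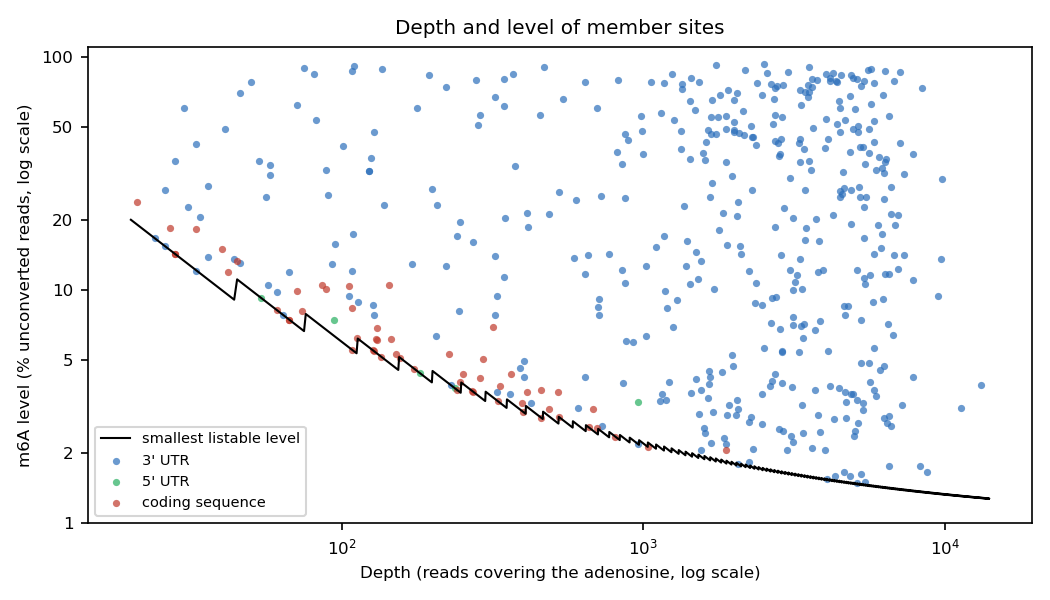
Each point is a member site, with depth (reads, log scale) on the x axis and m6A level (percent of unconverted reads, log scale) on the y axis, coloured by transcript region; the black line is the smallest level that could be listed at each depth. Sites of the coding sequence lie along the line, and sites of the 3′ UTR fill the space above it at all depths.

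Most member sites lay downstream of the stop codon. The 3′ UTR contained 443 of the 504 sites (87.9%), a smaller share than the 92.4% of all placed sites. Coding sequences contained 56 (11.1%, against 7.03% of all), and 5′ UTRs 5. The window from 20 nt before to 180 nt after the stop codon held 388 of the 504 sites (77.0%, 73.1 to 80.4%), against 72% of all placed sites. Among sites with at least 1000 reads, the order of the 3′ UTR and coding shares turned. The 3′ UTR then held 99.4% of placed sites in members and 94.2% in other genes, and coding sequences 0.604% and 5.40%. The window held 96.7% and 85.4%. Over all depths, the bin from 80 to 119 nt past the stop codon was the fullest, with 123 member sites, 43 of them above 50%. From 0 to 39 nt there were 31 sites with a median of 5.42%, and only 2 of them were above 50%. The 3′ UTRs of the members had a median length of 277 nt, and lengths in other genes are not given.

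**Figure D3:**
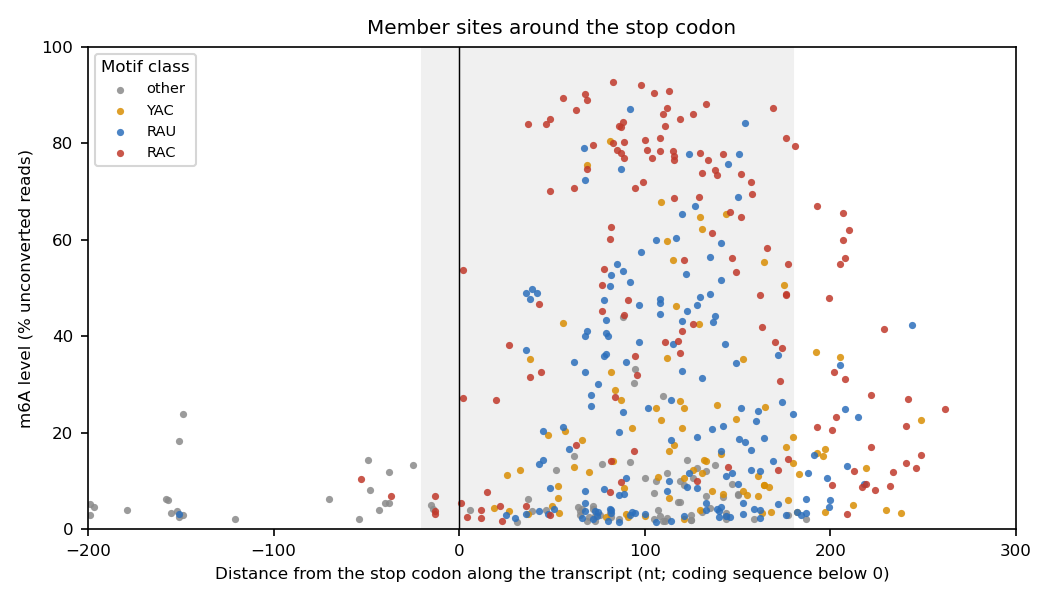
Member sites by distance from the end of the stop codon (nt, x axis, drawn from -200 to 300 nt) and m6A level (percent of unconverted reads, y axis), coloured by motif class; the grey band is the window from -20 to 180 nt. Apart from 1 site at 2 nt, levels above 50% begin 37 nt past the stop codon and end at 210 nt, and no site left of the stop codon is above 23.8%.

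RAC motifs made up 145 of the member sites (28.8%, 24.99 to 32.9%), a smaller share than the 39.3% among all listed sites. At a depth of at least 1000 reads, the RAC share was 25.4% (20.99 to 30.3%) in members and 30.8% (29.8 to 31.8%) in other genes. These 2 intervals overlapped, and the part of depth in the smaller share was not tested. Over all depths, RAC sites were nevertheless the strongest class, with a median level of 48.8% and 72 of 145 above 50%. RAU sites had a median of 18.7%, YAC sites of 14.1%, and the 112 sites in all other motifs of 4.99% with none above 50%. In other genes, RAC sites had a median of 40.3% with 41.6% above 50%, RAU sites of 17.1% and YAC sites of 20.2%. Over all depths the YAC median was thus lower in members, and the share of RAC sites above 50% was 49.7% in members. The order of the YAC medians turned among sites with at least 1000 reads, with 14.1% in members and 10.6% in other genes. Within RAC, 60 GAC sites of the members had a median of 63.0% and 85 AAC sites of 38.99%, while the medians in other genes were 40% for GAC and 40.5% for AAC. At a depth of at least 1000 reads, GAC and AAC had medians of 72.8% and 50.99% in members and of 32.7% and 26.2% in other genes. Of the 5-letter motifs, GGACC was found 6 times, on PGY2, RPS18C (at 2 sites), AT2G40010, AT3G09200 and RPSAb, and all 6 sites were above 50%, with a median of 81.8%.

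The level of a RAC site varied with its distance from the stop codon. The 10 RAC sites from 20 nt before to 19 nt after the stop codon had a median of 4.73%. The median of RAC sites was 35.4% from 20 to 59 nt, 70.8% from 60 to 99 nt, 77.0% from 100 to 139 nt and 54.1% from 140 to 180 nt. In the same bins RAU sites had medians of 14.3%, 28.9%, 32.8% and 16.3%. RAC sites of other genes at a depth of at least 1000 reads rose over the same bins, with medians of 5.59%, 19.6%, 40.1%, 47.5% and 42.5% from before the stop codon to 180 nt. The rise with distance was thus not confined to the members.

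Every adenosine of the window was then counted, listed or not, to give the share of positions that was listed. Of 125 RAC adenosines in the windows of the 38 members, 110 (88.0%, 81.1 to 92.6%) were listed and 65 (52.0%) had a level above 50%. Among the 102 in members with a median site depth of at least 1000 reads, 87.3% (79.4 to 92.4%) were listed and 52.0% (42.4 to 61.4%) were above 50%. In other genes of that depth, 66.7% (64.9 to 68.5%) of 2709 RAC adenosines were listed and 23.6% (22.1 to 25.3%) were above 50%. The intervals of members and other genes did not overlap in either measure. These intervals treat adenosines of the same gene as independent and cover counting error only, so this is not a test between the sets. The members were also the deeper genes here, with a median over genes of 2471.5 reads against 1792, so that lower levels could be listed on them, and the part of depth in the listed share was not tested.

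The other classes followed the same order. RAU adenosines were listed in 46.6% of cases in the deep members and in 28.9% in the deep other genes. For YAC the shares were 69.7% and 44.9%. Adenosines in all remaining motifs were listed in 5.43% and 3.54% of cases.

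**Figure D4:**
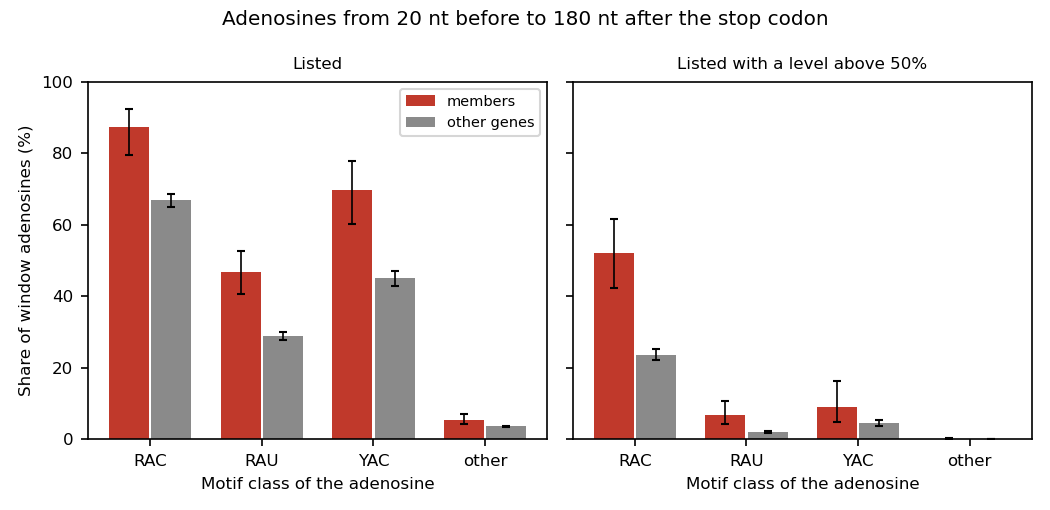
Bars give the percentage of adenosines between 20 nt before and 180 nt after the stop codon that were listed (left) or listed with a level above 50% (right), by motif class, in members (red) and other genes (grey) with a median site depth of at least 1000 reads; error bars are Wilson 95% intervals. For RAC, 87.3% against 66.7% were listed and 52.0% against 23.6% were above 50%.

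The RAC adenosines that were not listed lay almost all beside the stop codon. There were 15 of them, in 13 members, 12 within the coding sequence, and 14 lay no farther than 20 nt past the stop codon. Listed coding sites had lower depth than 3′ UTR sites in most members, and the part of depth here was not tested. From 21 to 180 nt, 99 of 100 RAC adenosines of the members were listed, and 64 (64.0%, 54.2 to 72.7%) were above 50%. The remaining one was a UGACG of the RPL38 gene AT2G43460, at 43 nt, on an mRNA whose nearest listed site, 57 nt away, had 5327 reads. In other genes with a median depth of at least 1000 reads, 1617 of 2012 such adenosines (80.4%, 78.6 to 82.0%) were listed and 31.6% (29.6 to 33.7%) were above 50%. The division at 20 nt was chosen after the positions had been seen.

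Within that stretch, all 54 AAC adenosines and 45 of 46 GAC adenosines of the members were listed. Levels above 50% were found at 30 of the AAC (55.6%) and at 34 of the GAC (73.9%). In the deep other genes, 29.4% of AAC and 36.02% of GAC were above 50%.

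Sites in the coding sequence formed a different group. The 56 sites, on 27 members, had a median level of 5.30% and none exceeded 23.8%. Their unconverted counts were close to the limit of the table, at most 2 times the smallest count that could be listed in 55 of 56. Only 6 (10.7%) were in RAC motifs, while 56.4% of 8057 coding sites in other genes were. Instead, 45 (80.4%) had one of the purine triplets AAA, AAG, GAA or GAG, compared with 15.4% of coding sites in other genes and 7.90% of the 3′ UTR sites of the members. Of the 21 bases around a coding site, a median of 76.2% were purines in members and 52.4% in other genes. Coding sites also differed in position, with 8.93% in the window around the stop codon in members and 27.1% in other genes. The purine share of whole coding sequences is not given, and the parts of position and base composition in these contrasts were not tested. The lines below show the coding sites of RPL36aA and AT2G43460, the only ones with 1000 or more reads, and one of RPL10A. The lines of RPL36aA and AT2G43460 hold a smaller share of purines than the member median, and that of RPL10A reaches it.
RPL36aA, coding sequence, chr3:8376008-8376028, plus strand: aagaccacGAAGAagattgtt
RPL38 gene AT2G43460, coding sequence, chr2:18046763-18046783, minus strand: accaagagAAAGCcgacaagc
RPL10A, coding sequence, chr1:4888695-4888715, plus strand: gtgtcatgGGAGAaggagaat
Their levels were 2.13% (1.41 to 3.20%) over 1033 reads, 2.07% (1.52 to 2.82%) over 1883 reads and 2.35% (1.51 to 3.64%) over 808 reads. Depth differed along these mRNAs. In 25 of the 27 members with sites in both regions the median depth was higher at 3′ UTR sites, with a median ratio of 11.97. Coding adenosines were therefore measured with fewer reads, and their part in the list was not tested further.

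Paralogs were compared at adenosines that occupy the same place in 2 genes. The 39 genes hold 12 sets of 2 or 3 paralogs with 27 members, which gave 18 pairs. Coding sequences of a pair were identical at a median of 87.6% of aligned columns, and 3′ UTRs at 70.2%. An adenosine counted as aligned where at least 9 of the 11 columns around it were identical. The 3′ UTRs had a median of only 9.5 such columns per pair, so few of the strong sites could be matched. RPL5A and RPL5B were the closest pair, with 112 columns, followed by AT3G09200 and AT3G11250 with 47 and RPL23AA and RPL23AB with 28.

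Counted per pair of genes, 53 aligned adenosines were listed in at least 1 paralog, 14 of them in both and 39 in 1 only. The sites listed in 1 only were mostly weak, with a median of 4.60%, and 3 were above 20%. In sets of 3 genes the same adenosine could enter more than 1 pair, as did weak coding sites of RPL10A. The 39 and their median thus include repeats. In 11 of the 14 shared sites the Newcombe 95% interval of the difference left out 0. The median absolute difference was 9.63 points. The 5-letter motif was the same in both genes at 7 sites, where the median absolute difference was 8.80 points. Intervals cover counting error only, and the spread between plants does not enter them.

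**Figure D5:**
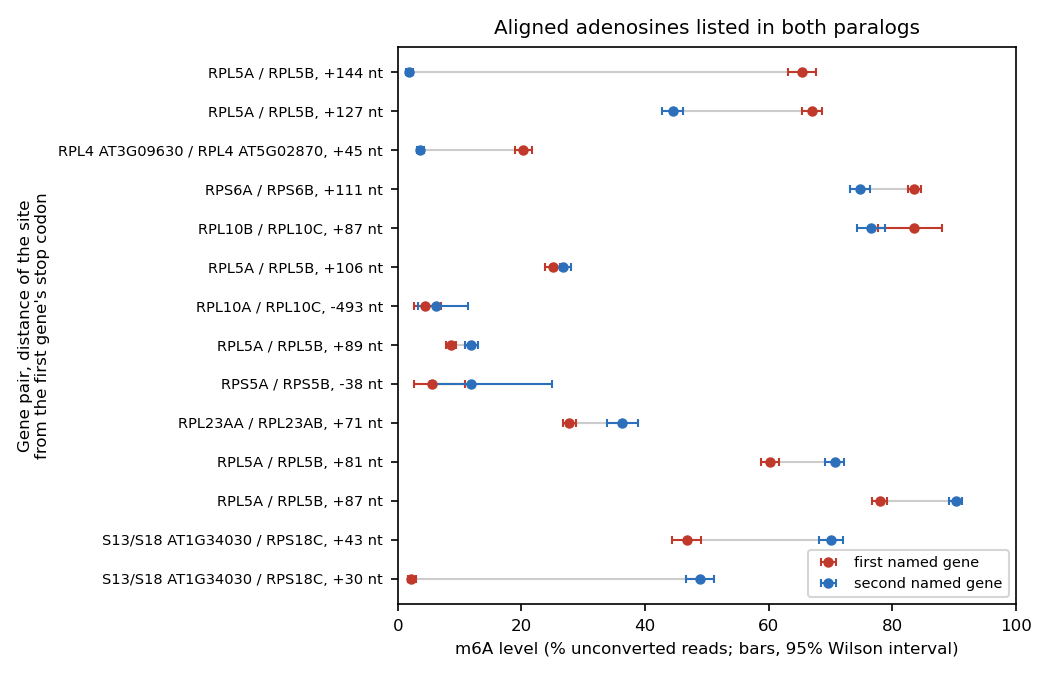
The 14 aligned adenosines listed in both genes of a pair, with the m6A level (percent of unconverted reads) on the x axis, red for the first and blue for the second gene named on the y axis, and Wilson 95% intervals as bars. Long connecting lines mark the RPL5 site at 144 nt, with 65.4% and 1.83%, and the RPS18 site at 30 nt, with 2.21% and 48.9%.

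RPL5A and RPL5B shared 6 listed sites in the 3′ UTR, more than any other pair. The 3 pairs shown here are their strongest site, and the 2 sites where the genes differed most.
RPL5A, site at 87 nt, chr3:9269476-9269496, minus strand: tcagactaAAACActcagctt
RPL5B, its partner at 68 nt, chr5:15905243-15905263, plus strand: tcagactaAAACActcagttt
RPL5A, site at 127 nt, chr3:9269436-9269456, minus strand: gtgttcgaGGATTttgatatt
RPL5B, its partner at 108 nt, chr5:15905283-15905303, plus strand: gcgtttgaAGATTttgaattc
RPL5A, site at 144 nt, chr3:9269419-9269439, minus strand: tattgaggATACAttttcttt
RPL5B, its partner at 125 nt, chr5:15905300-15905320, plus strand: attcgaggATATGttttgttt
At the first of these the motif AAACA was the same in both genes, and the level was 78.0% in RPL5A and 90.3% in RPL5B, a difference of -12.3 points (-13.8 to -10.7). At the second, GGAUU of RPL5A had 67.0% and AGAUU of RPL5B 44.5%, a difference of 22.5 points (20.2 to 24.8). At the third, AUACA of RPL5A had 65.4% (63.1 to 67.7%) over 1689 reads and AUAUG of RPL5B 1.83% (1.35 to 2.48%) over 2238 reads. This was the largest difference among the 14, at 63.6 points (61.2 to 65.9), and here the motif class changed from YAC to other.

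The other shared sites of this pair differed less. At an AGACU, RPL5A had 60.2% and RPL5B 70.7%, a difference of -10.5 points (-12.5 to -8.36). An ACACU had 8.58% and 11.9%, a difference of -3.34 points (-4.66 to -2.04). At a UCACA the levels were 25.1% and 26.7%, and the interval of the difference, -3.39 to 0.0246 points, included 0. RPL5B was higher at the 2 RAC sites of the pair, and RPL5A at the 2 sites whose 5-letter motif differed.

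AT1G34030 and RPS18C shared 2 sites in the 3′ UTR, 13 nt apart, shown here because they differed most among the small-subunit genes.
AT1G34030, site at 30 nt, chr1:12370245-12370265, minus strand: gctggattGGATCtttgataa
RPS18C, its partner at 36 nt, chr4:6174989-6175009, plus strand: tctgtattGGATActtcataa
AT1G34030, site at 43 nt, chr1:12370232-12370252, minus strand: tttgataaGGACTgaatttta
RPS18C, its partner at 49 nt, chr4:6175002-6175022, plus strand: cttcataaGGACCtgttttta
At the first, GGAUC of AT1G34030 had 2.21% (1.60 to 3.02%) over 1678 reads and GGAUA of RPS18C 48.9% (46.7 to 51.2%) over 1881 reads, a difference of -46.7 points (-49.0 to -44.3). The motif class was RAU in both. The same 5 letters, GGAUC, carried the highest level of AT1G34030, 84.2% at 154 nt. At the second, GGACU had 46.8% and GGACC 70.1%, a difference of -23.4 points (-26.4 to -20.3).

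Among the remaining pairs, an AGAUU of the RPL4 genes had 20.3% in AT3G09630 and 3.66% in AT5G02870, a difference of 16.6 points (15.2 to 18.2) with the same 5 letters. An AGACA was at 83.5% in RPS6A and 74.7% in RPS6B, a difference of 8.80 points (6.89 to 10.7). An AGAUA was at 27.8% in RPL23AA and 36.3% in RPL23AB, a difference of -8.57 points (-11.3 to -5.88). The RPL10B site at 87 nt, AAACA, had 83.5% and its RPL10C partner AGACA 76.6%, a difference of 6.93 points (0.668 to 12.1). The alignment around the RPS6 and RPL10 sites rests on 9 and 10 columns in the whole 3′ UTR, so these partners are less certain than those of RPL5.

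In the coding sequence, RPL10A and RPL10C shared a site with 4.38% and 6.16%, and RPS5A and RPS5B one with 5.47% and 11.9%. Both intervals of the difference included 0, running from -7.18 to 2.12 points and from -19.8 to 2.17 points.

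RPL36aB was the member without a listed site under its own name. Within its borders on chromosome 4, however, the table lists 11 sites on the same strand with no gene name. All 11 lie in the 3′ UTR of the RPL36aB transcript with the shorter coding sequence, and 0 of them on the transcript with the longer one. No other member had such sites. The 3 highest are shown because they are the strongest sites of this gene.
RPL36aB transcript, site at 69 nt, chr4:8242605-8242625, minus strand: actgtgatATACTttgaatct
RPL36aB transcript, site at 59 nt, chr4:8242615-8242635, minus strand: ctgcttcaATACTgtgatata
RPL36aB transcript, site at 114 nt, chr4:8242560-8242580, minus strand: tttaaataGGACTtggtctta
The first had a level of 90.1% (88.1 to 91.8%) over 1007 reads, the second 77.9% (75.9 to 79.8%) over 1671 reads and the third 75.9% (72.7 to 78.9%) over 726 reads. They lay 69, 59 and 114 nt past the stop codon of that transcript. The first and the second are AUACU, a YAC motif, and the third is GGACU. The other members had 6 sites in AUACU motifs, with 36.8% as the highest level. RPL36aA, the paralog, reached 80.7% (79.5 to 81.9%) over 4142 reads at a UAACU site 100 nt past the stop codon.

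The rest of the ribosomal protein genes were described by the same measures. RefSeq annotates 288 further nuclear genes as ribosomal proteins, of which 256 had listed sites and 231 of these had a level above 50%. Their 2889 sites had a median level of 16.2%. Of the 288, 150 were annotated as cytosolic, 140 of these had listed sites and 131 had a site above 50%. The median highest level of these genes was 81.5%, against 80.9% in the members, and their 1688 sites had a median of 13.9%, against 14.3%. The members thus had levels close to those of the other cytosolic ribosomal protein genes.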

How the data were processed

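The authors trimmed adapters with Cutadapt, removed short and low-quality reads, took a random barcode from read 1 and mapped the reads to TAIR10 with hisat2-3n (listed as HISAT2 in the submitters' processing notes); versions are not given in the sources used here. The authors also removed reads with many mismatches or clustered unconverted adenosines, which can lower the level where several m6A lie in 1 read. The table deposited by the authors holds 2 raw counts per site, the depth and the unconverted reads, read here as the pool of 3 replicates because no column names one, and a binomial p-value, which the authors computed and which was used here only to check the threshold. Recomputing this p-value at a background of 1% gave the deposited one at the 299 member sites compared, those whose p-value was large enough for the comparison, and the largest over all sites was 9.99e-04. Replicates were not separable, so no SD over replicates and no test between samples was computed, and 0 columns of other samples were present.

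The members and lists were chosen with earlier results of these data known. Levels were 100 times unconverted reads over depth, with Wilson 95% intervals, and Newcombe intervals for differences between paralogs. Regions and distances, counted from the last base of the stop codon, follow the RefSeq (TAIR10.1) transcript with the longest coding sequence. Of 504 member contexts, 499 were identical to this genome, and the other 5 span exon junctions. Genes named with values were the 12 members with the highest single-site level at a depth of at least 100 reads, the 5 with the most sites, those with at most 2, the 5 deepest sites, and, in paralog sets, the highest site per gene and the shared sites. Other members are named by their highest level, and coding examples were chosen after their values were seen. Other ribosomal protein genes were found by their RefSeq annotation, and the planned list by protein identity was not run. The tools were Python 3.11.15, numpy 2.4.6, pandas 2.3.3, scipy 1.17.1, Biopython 1.88 and matplotlib 3.10.9. Tested on simulated data, Wilson intervals held the true level in 95.1% of 10080 draws. The draws were binomial, as the interval assumes, so this checks the calculation and not the spread between replicates. Alternatives were other limits on depth, p-value and level, sites with repeated contexts left out, another window, and weighting by reads.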

Additional observations from a re-analysis of the deposited data

Results flagged for a closer look

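The 11 sites without a gene name on the shorter-coding transcript of RPL36aB fall outside the rows that define the member sites. The highest of them had a level of 90.1% (88.1 to 91.8%) over 1007 reads, which is above the limit that the table sets at that depth. The table has no control samples. Why these rows carry no gene name was not tested.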

How the results depend on the processing

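No paired analysis was possible because the series has 1 group and its pooled columns carry no replicate, and leaving out a replicate could not be done for the same reason. Of 60 summary values under alternatives, 47 stayed within the interval, or within 1.5 times the count, of the reported value and 13 moved. A depth of at least 100 reads moved the share in the stop-codon window from 77.0% to 82.4%. A binomial p under 1e-04, which left out 46 member sites, moved that share to 81.7% and the median level from 14.3% to 18.3%. Keeping only levels of at least 20% left 221 of 504 sites, with a median of 48.7%, 47.5% above 50%, a RAC share of 48.4%, a window share of 88.2% and 7 in place of 11 differing paralog sites. By construction this limit removes the weak sites. A window that ends at 100 nt held 35.9% of sites. Weighted by unconverted reads, the window held 98.4% and RAC 49.8%. Summed unconverted reads over summed depth gave a level of 27.9% in place of the median. Adding the unnamed RPL36aB sites, chosen after seeing the data, moved none of the summary values, and 39 members then had sites. Of 228 highest levels under alternatives, 1 moved, that of RPSAb, which was 47.7% at a depth of at least 100 reads. That alternative leaves RPSAb without a site above 50%. No row that names several genes includes a member, so adding such rows changed no value. Where several strong sites lie within 1 read, the read filter of the authors can lower levels, and its size was not tested.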
